A study of Homo sapiens and Mus musculus with 99 samples.

Results

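Aeg-S and Aeg-L are the subunits of a pore-forming protein pair, Aeg-S/L, and here each was described on its own, against mock treatment and against the joined pair. The libraries were chosen by their labels: DPBS (the mock treatment), Aeg-S alone and Aeg-L alone, with 2 libraries each, in 1 mouse and 1 human experiment. This gave 12 of the 99 RNA-sequencing libraries of the series. In the mouse experiment lung epithelial cells were isolated 6 h after intranasal dosing of mice. In the human experiment RNA was taken after 4 h from NCI-H1437, an epithelial cell line from a non-small cell lung cancer. The 2 Aeg-S/L libraries of each experiment served as the positive comparison, and the human fit also held 2 libraries labelled Aeg-S/L+Tra, where Tra is an agent that the labels give only in this short form. The labels state no dose, protein purity, or strain, age or sex of the mice. The series' design text speaks of biological replicates without saying whether they were separate animals or cultures, so p-values measure the spread between these libraries.

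Bicomponent pore-forming proteins are built so that neither component usually perforates a membrane alone. In the fungal pairs studied most, a small aegerolysin binds membrane lipid and a partner with a membrane attack complex/perforin domain docks on it, forms a ring and inserts. Epithelial cells that are perforated lose potassium and take up calcium, which is known to switch on ERK and NF-kB signalling. Immediate early genes such as FOS and EGR1 answer within minutes to hours through serum response factor, while chemokines such as CXCL8 are raised by AP-1 and NF-kB together and recruit neutrophils. The comparisons of each subunit with DPBS address whether either of them alone starts such a response.

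The promoters of 3 response genes are shown because these genes mark 3 branches of that response. Each run covers 250 bases before to 50 bases after the RefSeq start in GRCh38.p14, and capitals mark the motif found. In EGR1 (chr5:138465229-138465528, plus strand) they mark 2 CArG boxes, the letters bound by serum response factor. In CXCL8 (chr4:73740319-73740618, plus strand) they mark 1 AP-1 motif, TGANTCA. In NFKBIA (chr14:35404700-35404999, minus strand), which encodes the inhibitor IkB-alpha, they mark 1 NF-kB site.
EGR1: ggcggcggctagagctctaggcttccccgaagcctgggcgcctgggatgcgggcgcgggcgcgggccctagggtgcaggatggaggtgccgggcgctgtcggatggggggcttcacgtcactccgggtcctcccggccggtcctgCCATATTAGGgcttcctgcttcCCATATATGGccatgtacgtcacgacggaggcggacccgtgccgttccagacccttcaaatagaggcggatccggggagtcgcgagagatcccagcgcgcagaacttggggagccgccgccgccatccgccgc
CXCL8: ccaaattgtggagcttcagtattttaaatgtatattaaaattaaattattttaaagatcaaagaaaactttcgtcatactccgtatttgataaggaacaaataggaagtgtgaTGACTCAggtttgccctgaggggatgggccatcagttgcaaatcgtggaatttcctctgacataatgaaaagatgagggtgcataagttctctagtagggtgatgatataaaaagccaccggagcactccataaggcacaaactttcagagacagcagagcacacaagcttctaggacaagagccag
NFKBIA: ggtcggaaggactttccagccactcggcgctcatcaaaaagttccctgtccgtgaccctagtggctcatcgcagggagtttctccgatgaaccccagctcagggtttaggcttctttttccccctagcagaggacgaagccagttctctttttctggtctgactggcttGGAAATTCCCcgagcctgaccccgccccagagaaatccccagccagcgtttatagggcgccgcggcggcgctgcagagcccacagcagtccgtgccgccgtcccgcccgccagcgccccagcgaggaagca
Searched on both strands of 35116 RefSeq promoters of this length, the CArG box occurred in 1.29%, the AP-1 motif in 7.71% and the NF-kB site in 5.91%. Other response genes were searched as well. IL6, CXCL1 and CXCL2 were among those with an NF-kB site, while FOS, ATF3 and NR4A1 held none of these motifs. A match describes letters in this window and shows no binding. A missing match does not show that a site is absent, also for NF-kB in CXCL8.

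In mouse lung epithelial cells 0 of 19053 tested genes (0%) passed an adjusted p under 0.05 for Aeg-S against DPBS, and 0 (0%) for Aeg-L against DPBS. These are edgeR quasi-likelihood tests with Benjamini-Hochberg adjustment, fitted over all 4 groups of the experiment. At an unadjusted p under 0.05 there were 1178 genes (6.18%) for Aeg-S and 599 (3.14%) for Aeg-L, and the smallest adjusted p were 0.698 and 1. DESeq2 called 18 genes for Aeg-S, 12 higher and 6 lower, and 2 for Aeg-L, 1 in each direction. The median absolute log2 change over all genes was 0.24 for Aeg-S and 0.15 for Aeg-L. In these bulk samples fewer cells of a type and less RNA per cell cannot be told apart.

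In NCI-H1437 cells the edgeR test called 0 of 16962 genes (0%) for Aeg-S and 0 (0%) for Aeg-L. Here 1491 genes (8.79%) had an unadjusted p under 0.05 for Aeg-S and 186 (1.1%) for Aeg-L. DESeq2 called 0 genes in each comparison, and the smallest edgeR adjusted p were 0.528 and 1. The median absolute log2 change was 0.29 for Aeg-S and 0.13 for Aeg-L. Both comparisons of an experiment used the same 2 DPBS libraries, so their changes share that error.

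Set directly against each other, the subunits gave 0 edgeR calls in mouse (0%) and 0 in human cells (0%). The counts at an unadjusted p under 0.05 were 944 (4.95%) and 2640 (15.6%). DESeq2 called 12 mouse genes, 1 higher under Aeg-S and 11 lower, and 5 human genes. The 5 human genes were IL1A, which encodes the alarmin interleukin-1 alpha, NDUFB7, a subunit of respiratory complex I, the zinc finger gene ZNF524 and the IDs ENSG00000258486.2 and ENSG00000265150.1, which matched no symbol. IL1A stood at 0.551 and 0.390 CPM (counts scaled to library size with TMM factors) in DPBS, 0.990 and 0.691 under Aeg-S, and 0.234 and 0 under Aeg-L. Its groups did not overlap, yet all 6 values lay below 1 CPM, and the edgeR adjusted p for Aeg-S against Aeg-L was 0.301.

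The joined pair differed from each subunit in many genes in the same fits. In mouse, 3701 genes (19.4%) were higher and 3796 (19.9%) lower under Aeg-S/L than under Aeg-S, and 3604 (18.9%) higher and 3757 (19.7%) lower than under Aeg-L. In human cells 2555 genes (15.1%) were higher and 2480 (14.6%) lower than under Aeg-S, but only 540 (3.18%) higher and 377 (2.22%) lower than under Aeg-L. The human total against Aeg-L, 917 (5.41%), was 3783 without the library Aeg-L 2, 470 without Aeg-L 1, and 246 and 281 without the first and the second Aeg-S/L library. The human total against Aeg-S, 5035 (29.7%), was 1667 without Aeg-S 2, and 601 and 1596 without the first and the second Aeg-S/L library. In mouse, leaving out either Aeg-S/L library took the total against Aeg-S from 7497 (39.3%) to 4504 or 4499, and leaving out any library of Aeg-L or Aeg-S/L took the total against Aeg-L from 7361 (38.6%) to between 4013 and 4532.

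**Figure D1:**
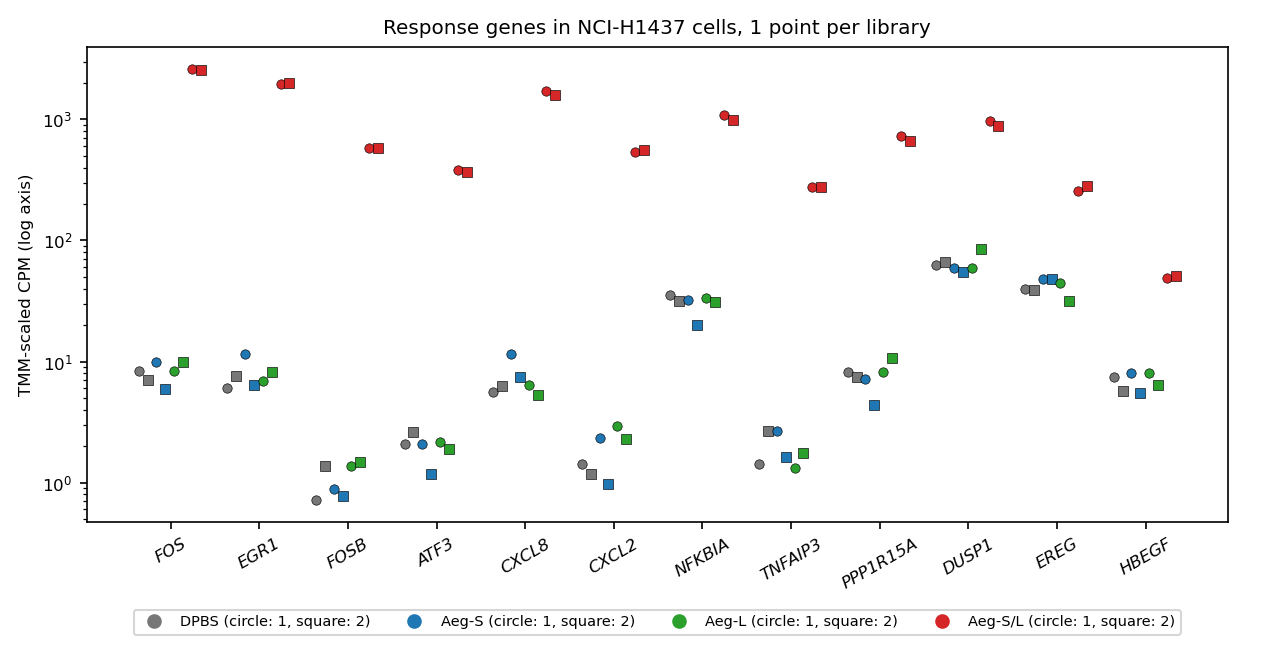
Levels of human response genes in the 8 DPBS, single-subunit and Aeg-S/L libraries of NCI-H1437, by gene, with 1 point per library. The vertical axis is CPM scaled with TMM factors, on a log axis. The points of DPBS, Aeg-S and Aeg-L lie together, and the Aeg-S/L points lie above them, as for FOS at 2628 and 2540 CPM.

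Immediate early transcription factors, the first genes to answer growth factor, calcium and stress signals, had no call under either subunit. FOS (hg19 chr14:75745477-75748933), which forms AP-1 with JUN proteins, was at 8.33 and 7.10 CPM in DPBS, 10.0 and 5.87 under Aeg-S, 8.43 and 9.97 under Aeg-L, and 2628 and 2540 under Aeg-S/L. The Aeg-S values straddled those of DPBS, and the Aeg-L values lay just above the higher of them. The fold change of FOS was 1.03 for Aeg-S (95% interval 0.707 to 1.5) and 1.19 for Aeg-L (0.819 to 1.74), against 325 for Aeg-S/L over Aeg-S (adjusted p = 2.21e-08). EGR1 (hg19 chr5:137801179-137805004), the zinc finger factor whose promoter is shown above, was at 6.09 and 7.56 CPM in DPBS, 11.6 and 6.36 under Aeg-S, 6.89 and 8.21 under Aeg-L, and 1954 and 2001 under Aeg-S/L. Aeg-S 1 was the highest of the 6 DPBS and single-subunit libraries and the others lay together, and the fold was 1.32 for Aeg-S (0.900 to 1.92) and 1.10 for Aeg-L (0.754 to 1.62). ATF3, a stress-induced repressor, was at 2.07 and 2.60 CPM in DPBS, 2.08 and 1.18 under Aeg-S, 2.16 and 1.88 under Aeg-L, and 382 and 364 under Aeg-S/L.

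Of 19 immediate early genes tested, 0 passed for either subunit. The 95% interval of the change lay within 2-fold of no change in 10 for Aeg-S and 12 for Aeg-L. Over all tested genes the share within 2-fold was 55.8% for Aeg-S and 65.4% for Aeg-L. These shares are also the measure for the list counts below. The median log2 change was -0.25 for Aeg-S and 0.14 for Aeg-L, beside -0.01 and 0.01 over all genes. The changes ran from -1.53 (EGR2) to 0.67 (NR4A3) for Aeg-S and from -0.54 (EGR2) to 2.23 (EGR3) for Aeg-L. EGR2 and EGR3 were below 1 CPM in all 6 libraries. Within Aeg-L the libraries parted for JUND and JUNB, which encode AP-1 partners. JUND was at 70.3 and 66.5 CPM in DPBS, 56.5 and 52.5 under Aeg-S, and 43.5 and 136 under Aeg-L, so that Aeg-L held both the lowest and the highest value of the 6 libraries. JUNB did the same on a smaller scale, with 32.7 and 79.9 CPM under Aeg-L beside 44.5 and 38.2 in DPBS. Under Aeg-S/L, 18 of the 19 were higher than under Aeg-S and 17 than under Aeg-L, beside 15.1% and 3.18% of all genes.

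ERK feedback genes, which encode phosphatases and inhibitors that ERK itself induces, had no call under either subunit. All 13 had an interval within 2-fold for Aeg-S and for Aeg-L. DUSP6, the cytoplasmic ERK phosphatase, was at 16.3 and 14.5 CPM in DPBS, 16.8 and 14.8 under Aeg-S, 14.8 and 17.7 under Aeg-L, and 89.8 and 86.9 under Aeg-S/L. The 6 DPBS and single-subunit values of DUSP6 overlapped, with folds of 1.03 (0.718 to 1.47) and 1.05 (0.736 to 1.51). Under the joined pair 7 of 13 were higher than under Aeg-S and 6 than under Aeg-L, beside 15.1% and 3.18% of all genes. Of 7 ligands of the EGF receptor 0 passed, and 5 had an interval within 2-fold for each subunit. EREG, epiregulin, was at 39.6 and 39.1 CPM in DPBS, 48.2 and 47.6 under Aeg-S, 44.3 and 31.6 under Aeg-L, and 258 and 282 under Aeg-S/L. EREG had a fold of 1.22 for Aeg-S (0.918 to 1.61), where both values lay above both DPBS values, and of 0.964 for Aeg-L (0.727 to 1.28).

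Chemokines had the highest median of the 17 lists under Aeg-S, a log2 change of 0.63 over 6 tested genes, and of 0.22 under Aeg-L. CXCL8 (hg19 chr4:74606223-74609433), interleukin-8, was at 5.60 and 6.29 CPM in DPBS, 11.5 and 7.51 under Aeg-S, 6.45 and 5.24 under Aeg-L, and 1702 and 1593 under Aeg-S/L. Both Aeg-S values exceeded both DPBS values, and the fold was 1.60 (95% interval 1.10 to 2.32, unadjusted p = 0.018, adjusted p = 0.528), whereas it was 0.984 (0.674 to 1.44) for Aeg-L. CXCL1, another neutrophil attractant, was at 1.38 and 1.30 CPM in DPBS, 4.64 and 1.27 under Aeg-S and 1.56 and 1.71 under Aeg-L, so a single Aeg-S library carried its log2 change of 1.15 ± 0.45 (SE, adjusted p = 0.528). For CXCL2 it was Aeg-L that lay above DPBS in both libraries, at 2.91 and 2.28 CPM beside 1.43 and 1.17, with a fold of 2.0 (1.13 to 3.54, unadjusted p = 0.0217, adjusted p = 1). CCL20, which attracts dendritic and T cells, was between 0 and 0.286 CPM in the 6 libraries, beside 58.6 and 54.2 CPM under Aeg-S/L. None of the 6 passed for a subunit. Of the 6, 5 were higher under Aeg-S/L than under either, beside 15.1% of all genes against Aeg-S and 3.18% against Aeg-L.

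Among the cytokine genes, IL6 was at 0 CPM in 5 of the 6 libraries and at 0.104 in Aeg-S 1, and at 94.4 and 93.5 CPM under Aeg-S/L. Against Aeg-L, where its count was 0, this was at least 2305-fold higher, with a floor of 3 counts over the group. Of 9 tested cytokine genes 0 passed for either subunit, and their medians were -0.16 and -0.26. Only 2 had an interval within 2-fold for Aeg-S and 3 for Aeg-L.

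Feedback genes of NF-kB, which NF-kB induces and which then restrain it, lay on both sides of DPBS under Aeg-S. NFKBIA (hg19 chr14:35870717-35873955) was at 35.2 and 31.3 CPM in DPBS, 32.5 and 19.9 under Aeg-S, 33.3 and 30.8 under Aeg-L, and 1094 and 997 under Aeg-S/L. The second Aeg-S library was the lowest of the 6, and the others lay together, with folds of 0.789 (0.560 to 1.11) and 0.964 (0.685 to 1.36). ICAM1, the leukocyte adhesion molecule, was at 2.56 and 1.77 CPM in DPBS, 3.44 and 4.03 under Aeg-S, and 2.55 and 2.73 under Aeg-L, a log2 change of 0.79 ± 0.24 for Aeg-S (adjusted p = 0.528). ZFP36, an RNA-binding protein that destabilises cytokine mRNA, was at 17.5 and 16.2 CPM in DPBS and 12.7 and 6.65 under Aeg-S, a log2 change of -0.80 ± 0.25 (adjusted p = 0.528). Of 13 genes, 4 had an unadjusted p under 0.05 for Aeg-S and 0 for Aeg-L, beside 8.79% and 1.1% of all genes. For Aeg-S 9 of the 13 had intervals within 2-fold, and 12 for Aeg-L. The joined pair was higher than Aeg-S in 12 of the 13 and higher than Aeg-L in 11, beside 15.1% and 3.18% of all genes.

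Lists of genes linked to membrane repair, lipids and calcium also showed no call. Among 10 genes of membrane repair, such as the annexins and ESCRT components, 0 passed and 10 had an interval within 2-fold under each subunit, with changes from -0.41 to 0.43 for Aeg-S and -0.08 to 0.19 for Aeg-L. ANXA1 was at 214 and 238 CPM in DPBS, 261 and 194 under Aeg-S, and 284 and 204 under Aeg-L, with overlapping groups. All 10 cholesterol synthesis genes stood within 2-fold as well, from -0.24 to 0.18 for Aeg-S and -0.06 to 0.11 for Aeg-L. So did all 8 calcium and CREB targets. For 10 genes of sphingomyelin and ceramide metabolism the count within 2-fold was 7 for each subunit. Of them 2 had an unadjusted p under 0.05 for Aeg-S, beside 8.79% of all genes. Against Aeg-L, the joined pair had 0 calls among membrane repair and sphingomyelin genes, and 2 lower cholesterol genes. Against Aeg-S, in this order, it had 3 higher, 2 higher with 1 lower, and 4 lower. Over all genes 5.41% and 29.7% were called. Calcium and CREB targets had 6 higher than under each subunit, and 2 lower than under Aeg-S. In the other lists the pair raised 0 genes against Aeg-L, so their lack of a call cannot show an undamaged membrane. HSPA5, the main chaperone of the endoplasmic reticulum, was at 767 and 770 CPM in DPBS, 822 and 788 under Aeg-S and 880 and 798 under Aeg-L, with folds of 1.05 (0.848 to 1.29) and 1.09 (0.884 to 1.35).

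The airway mucin MUC5B had the smallest p of the listed genes under Aeg-L. It was at 74.5 and 54.8 CPM in DPBS, 60.1 and 68.5 under Aeg-S, 36.6 and 43.2 under Aeg-L, and 113 and 143 under Aeg-S/L. The Aeg-L values lay below all others, a log2 change of -0.70 ± 0.22 (unadjusted p = 0.00772, adjusted p = 1). MUC5AC, the mucin of goblet cells, was at 467 and 335 CPM in DPBS, 389 and 440 under Aeg-S, 252 and 302 under Aeg-L, and 806 and 1137 under Aeg-S/L, a log2 change of -0.53 ± 0.21 for Aeg-L (adjusted p = 1). Both lie side by side on chromosome 11. Of the 8 tested mucus genes 0 passed for a subunit. Under Aeg-S/L, 4 were higher than under Aeg-S and 2 than under Aeg-L, beside 15.1% and 3.18% of all genes.

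Over all 17 lists, 166 of 185 symbols were tested and 0 were called for Aeg-S or Aeg-L. The interval lay within 2-fold for 121 genes (72.9%) under Aeg-S, beside 55.8% of all tested genes, and for 133 (80.1%) under Aeg-L, beside 65.4%. An unadjusted p under 0.05 was found for 24 listed genes (14.5%) under Aeg-S, beside 8.79% of all genes, and for 4 (2.41%) under Aeg-L, beside 1.1%. Under Aeg-S/L, 82 of the 166 were higher and 21 lower than under Aeg-S, beside 15.1% and 14.6% of all genes. Against Aeg-L, 62 were higher and 6 lower, beside 3.18% and 2.22% of all genes.

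Response genes chosen in other experiments were followed library by library. In human cells the set held the 200 genes with the smallest p among those raised at least 2-fold by Aeg-S/L in another NCI-H1437 experiment of 4 libraries. Relative to the mean of the 6 DPBS and single-subunit libraries, its median log2 level was 0.02 and -0.02 in DPBS, 0.06 and -0.15 under Aeg-S, 0.02 and 0.04 under Aeg-L, 2.32 and 2.34 under Aeg-S/L, and 0.84 and 0.87 under Aeg-S/L+Tra. All 6 lay near 0, with Aeg-S 2 lowest. Of the 200, 0 passed for a subunit, and 95 had a positive change for Aeg-S and 122 for Aeg-L. Their median log2 changes were -0.03 and 0.05, beside -0.01 and 0.01 over all genes. The interval was within 2-fold for 137 (68.5%) under Aeg-S and 172 (86%) under Aeg-L, beside 55.8% and 65.4% of all genes. Under Aeg-S/L, 191 were higher than under Aeg-S and 192 than under Aeg-L, beside 15.1% and 3.18% of all genes. An unadjusted p under 0.05 was found for 34 genes (17%) under Aeg-S and 4 (2%) under Aeg-L, beside 8.79% and 1.1% of all genes.

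In mouse the set held 200 genes raised by an extract of the fungus Alternaria alternata in an experiment of 6 libraries. Its median level was -0.06 and -0.05 in DPBS, 0.07 and -0.04 under Aeg-S, 0.03 and 0.13 under Aeg-L, and 2.56 and 2.65 under Aeg-S/L. The 4 single-subunit medians lay above both DPBS medians, but Aeg-S 2 hardly so, at -0.044 beside -0.049 in DPBS 2. The quartiles of Aeg-S 2 were -0.40 and 0.28. Of the 200 genes, 117 had a positive change for Aeg-S and 141 for Aeg-L. Their median log2 changes were 0.06 and 0.13, beside -0.01 and 0.0005 over all genes. The interval lay within 2-fold for 131 (65.5%) and 153 (76.5%), beside 54.6% and 58.8% of all genes. An unadjusted p under 0.05 was found for 37 (18.5%) and 26 (13.0%), beside 6.18% and 3.14% of all genes. Against each subunit, 199 were higher under Aeg-S/L, beside 19.4% of all genes against Aeg-S and 18.9% against Aeg-L.

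**Figure D2:**
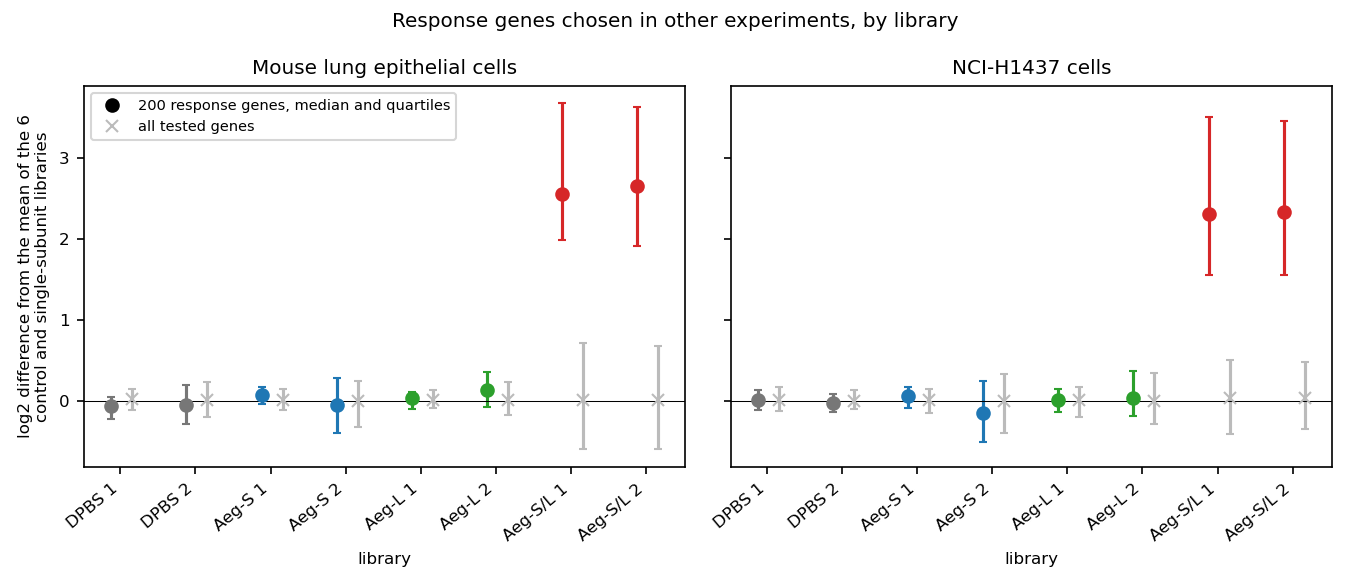
Response genes chosen in other experiments, for the 8 DPBS, single-subunit and Aeg-S/L libraries of the mouse (left) and NCI-H1437 (right) experiment, as the log2 difference from the mean of the 6 DPBS and single-subunit libraries. Dots are medians of 200 genes with quartiles and grey crosses are all tested genes. Aeg-S/L stands at 2.56 and 2.65 in mouse and 2.32 and 2.34 in human cells, and the 6 DPBS and single-subunit libraries lie between -0.15 and 0.13.

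The size of effect that could be seen depended on the level of the gene. Over all tested genes the median half-width of the 95% interval was 0.59 on the log2 scale in mouse for each subunit (1.51-fold) and 0.56 in human cells (1.47-fold). In mouse it fell from 1.87 for genes under 1 CPM (3.65-fold) to 0.76 at 1 to 10 CPM, 0.37 at 10 to 100 CPM and 0.36 above 100 CPM (1.28-fold) for Aeg-S. In human cells these were 1.87, 0.73, 0.45 and 0.41 (1.33-fold above 100 CPM). Above 10 CPM the intervals thus depended little on level.

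To pass the adjusted threshold alone among all tested genes, a gene of median spread needed a log2 change of 3.0 (7.99-fold) in mouse and 2.08 (4.22-fold) in human cells. Had 100 genes changed together, 3.01-fold and 2.43-fold would have sufficed, and with 1000 genes 2.15-fold and 1.93-fold. For a gene above 100 CPM changing alone the size was 3.48-fold in mouse and 2.90-fold in human cells. The 95% interval excluded a 2-fold change either way for 54.6% of mouse genes under Aeg-S and 58.8% under Aeg-L, and for 55.8% and 65.4% in human cells. Above 100 CPM these shares were 87.7% and 94.3% in mouse, and 87.0% and 98.6% in human cells. Below 1 CPM they were 0.125% to 0.247%, so that for genes such as IL6 and CCL20 no 2-fold change was detectable at this depth.

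**Figure D3:**
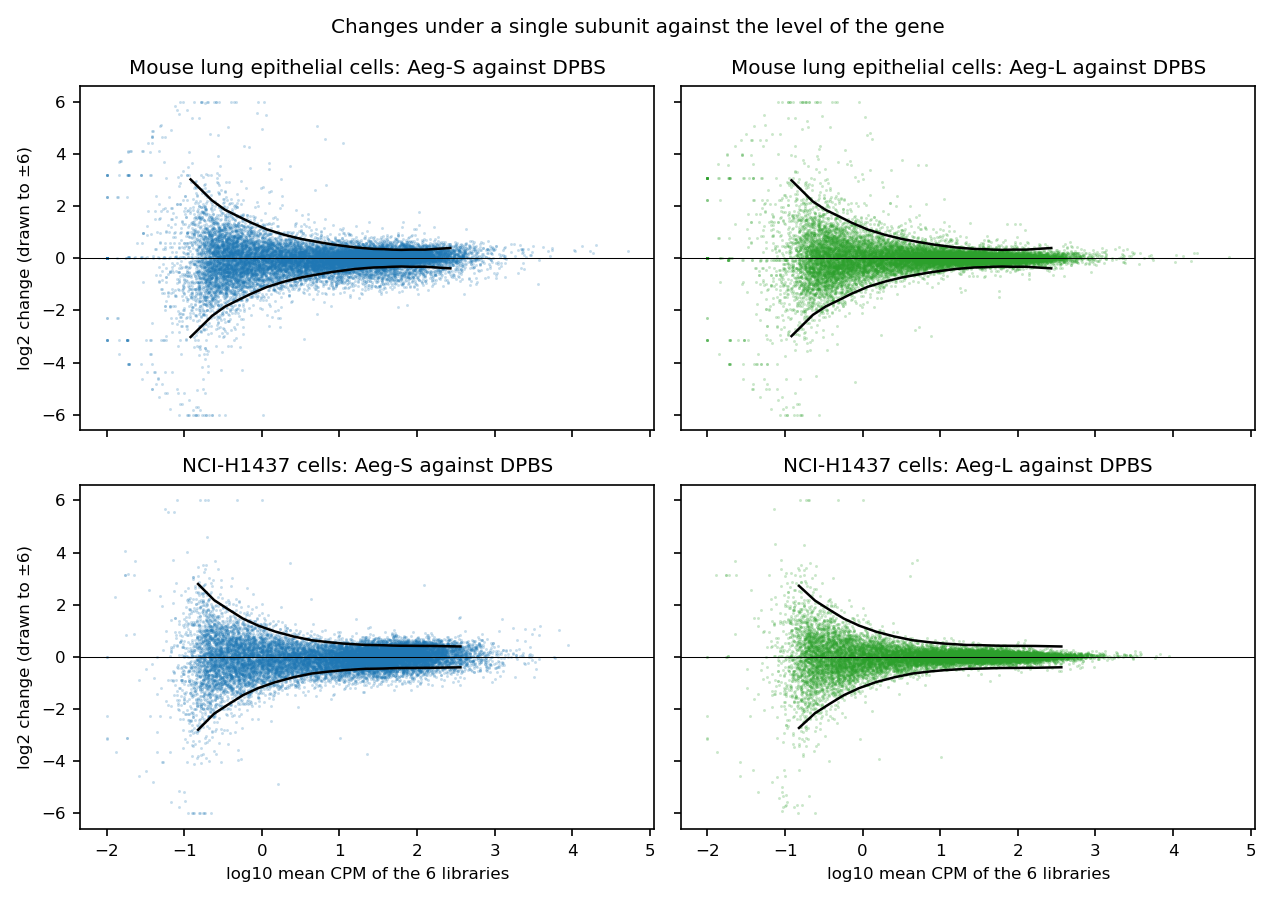
Log2 change under Aeg-S (left) and Aeg-L (right) against DPBS by mean level in CPM (log axis), in mouse (top) and NCI-H1437 (bottom), with 1 point per gene. The spread is wider for Aeg-S than for Aeg-L in each species, with median absolute changes of 0.24 and 0.15 in mouse and 0.29 and 0.13 in human cells.

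The second Aeg-S library stood apart in both experiments. Distances are the median absolute log2 difference between libraries over all tested genes. In human cells Aeg-S 1 and Aeg-S 2 were 0.41 apart, beside 0.16 for the DPBS pair and 0.15 for the Aeg-S/L pair. In mouse the Aeg-S pair was 0.34 apart, the DPBS pair 0.28 and the Aeg-L pair 0.23. Aeg-S 1 lay nearest to Aeg-L 1 in each experiment, at 0.15 in human cells and 0.16 in mouse, closer than to its own replicate. Aeg-S 2 was the library farthest from the median of the 6 for 37.7% of mouse genes and 42.5% of human genes, where an even share is 16.7%.

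Human Aeg-L 2 was the second library apart. It was 0.43 from Aeg-L 1 and 0.60 from Aeg-S 2. Its nearest library was the first Aeg-S/L+Tra library at 0.20, and it lay 0.28 and 0.27 from the Aeg-S/L libraries, about as near as to DPBS 1 at 0.27. It was the farthest of the 6 for 28.97% of human genes. Even so, the Aeg-S/L response genes stood at a median of 0.04 in it. No such gap was seen in mouse, where Aeg-L 2 was farthest for 18.2% of genes. Human Aeg-S 2 held 37.2 M counts and Aeg-L 2 held 34.5 M, within a range of 33.9 to 37.9 M over the 10 libraries. The 8 mouse libraries held 32.5 to 36.3 M. Human Aeg-S 2 had the fewest genes with a count, 20424, beside 20815 to 21605 in the others. Its top 100 genes took 20.6% of counts, beside 17.8% to 19.5%. Mouse Aeg-S 2 had 23050 genes with a count, beside 23940 to 25567, and a top-100 share of 34.3%, beside 24.8% to 30.6%. The part of these measures was not tested.

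**Figure D4:**
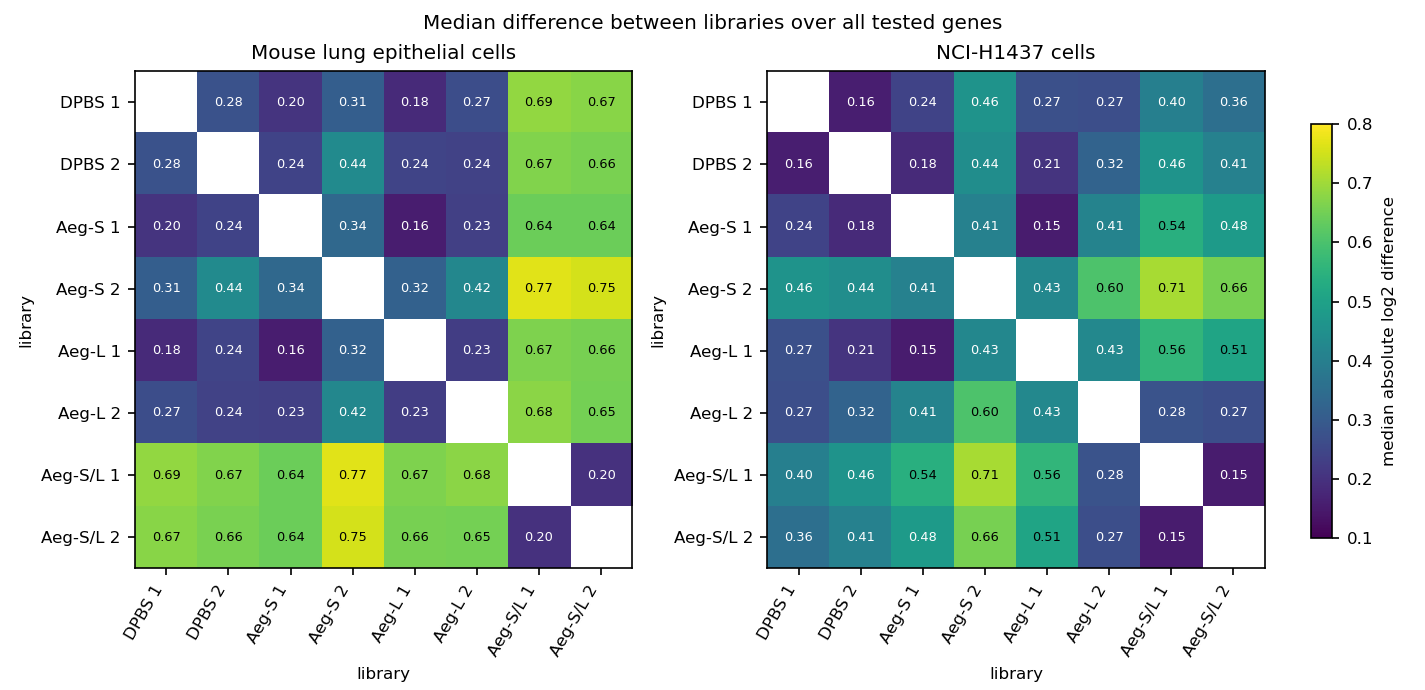
Median absolute log2 difference between each pair of libraries over all tested genes, in mouse (left) and NCI-H1437 (right), as a colour scale. The human Aeg-S 2 row is far from all others, at 0.41 or more, and the mouse Aeg-S/L pair lies at least 0.64 from every DPBS and single-subunit library.

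A group of secretory and respiratory mRNAs was low in human Aeg-S 2. This library was the lowest of the 6 libraries by at least 4-fold for 53 genes with at least 1 CPM and the highest for 4, whereas for Aeg-S 1 both numbers were 0. Among the 53, singled out after their values were seen, were secreted epithelial proteins, S100 calcium-binding proteins and small subunits of cytochrome oxidase. TFF1, a trefoil peptide that is secreted with mucus, was at 351 and 344 CPM in DPBS, 338 and 62.2 under Aeg-S, and 329 and 413 under Aeg-L. S100A6 was at 1094 and 1048 CPM in DPBS, 885 and 208 under Aeg-S, and 981 and 1292 under Aeg-L. COX6C, of respiratory complex IV, was at 89.4 and 100.6 CPM in DPBS, 96.0 and 15.1 under Aeg-S and 95.9 and 88.2 under Aeg-L. In each case 5 libraries lay together and Aeg-S 2 lay far below them. Mouse Aeg-S 2 was the lowest by 4-fold for 147 genes and the highest for 9. These mouse IDs matched no symbol, and whether they are of the same kinds as the human genes was not tested.

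Mitochondrial transcripts were high in the same human library, as were some long nuclear ones. FOXP1, a forkhead transcription factor with a long mRNA, was at 37.4 and 37.6 CPM in DPBS, 45.0 and 106 under Aeg-S, and 41.7 and 36.3 under Aeg-L. MKI67, a proliferation marker, was at 588 and 529 CPM in DPBS, 602 and 1214 under Aeg-S and 494 and 342 under Aeg-L. MT-ND5, encoded by the mitochondrial genome, was at 583 and 1018 CPM in DPBS, 1233 and 3137 under Aeg-S, and 1006 and 572 under Aeg-L. All 16 tested mitochondrial genes had their highest value of the 6 in Aeg-S 2, and 15 had an unadjusted p under 0.05 for Aeg-S. Mitochondrial genes took 5.66% of its counts, beside 1.72% to 3.35% in the other 5. In mouse the share in Aeg-S 2 was 3.69%, beside 2.55% to 3.14%, a smaller gap than in human cells.

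The trend with length ran over the whole human transcriptome. From the quintile of genes with the shortest to that with the longest summed exons (median 1000 to 9165 bases), the median log2 deviation from the mean of the 6 libraries went from -0.25 to 0.30 in Aeg-S 2. It went from 0.16 to -0.21 in Aeg-L 2, the opposite way, and from 0.02 to 0.03 in Aeg-S 1. By GC content of the transcript (quintiles with medians of 38.7% to 61.6%), Aeg-L 2 went from -0.32 to 0.49, and Aeg-L 1 from 0.13 to -0.24. Aeg-S 2 went from 0.23 to -0.24 by GC and Aeg-S 1 from 0.10 to -0.17, both opposite to Aeg-L 2. The Aeg-S/L libraries went from -0.42 to 0.60 and from -0.34 to 0.54 by GC, in the direction of Aeg-L 2. DPBS 1 rose in that direction too, from -0.11 to 0.14, while DPBS 2 went from -0.02 to 0.03. GC was known for 96.9% of the tested human genes. In mouse, Aeg-S 2 went only from -0.05 to 0.05 by length, so the human trend with length was not seen there at that size. The Aeg-S/L+Tra libraries went from -0.31 to 0.44 and from -0.25 to 0.36 by GC. The part of length, GC and mitochondrial content was not tested, neither in the single-subunit comparisons nor in those with Aeg-S/L.

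**Figure D5:**
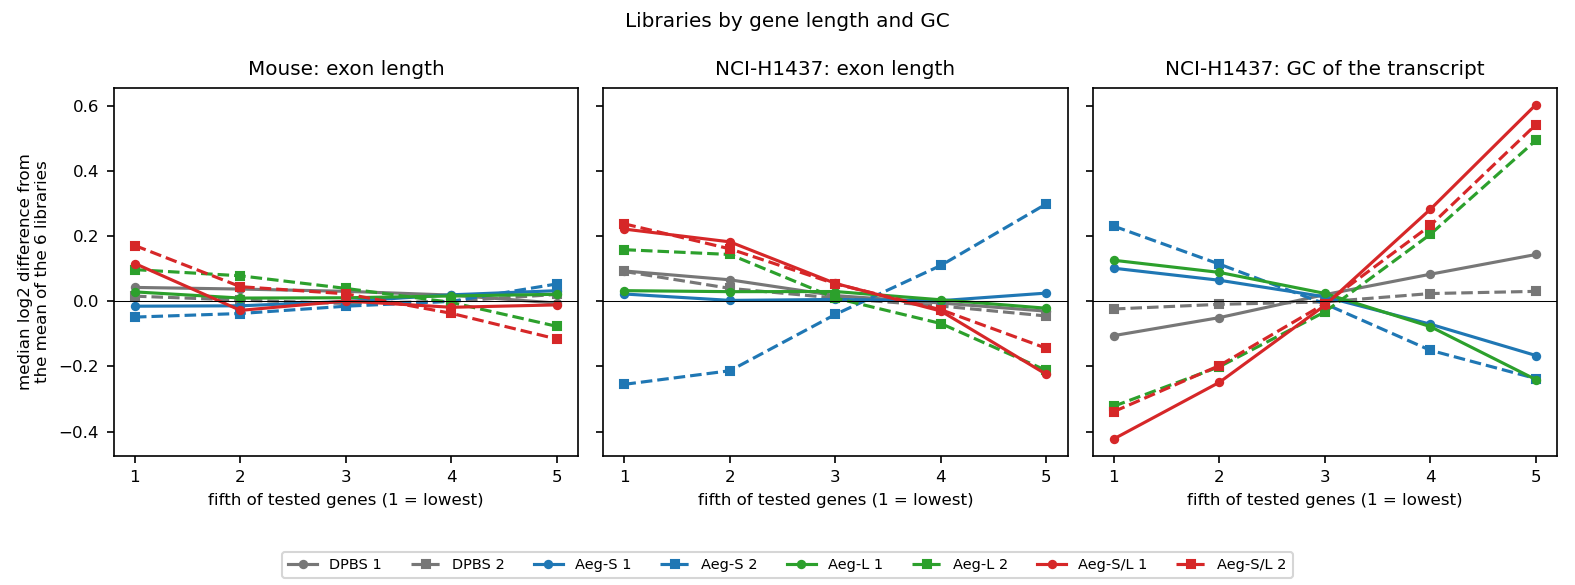
Median log2 deviation of each library from the mean of the 6 DPBS and single-subunit libraries, by quintile of exon length in mouse (left) and NCI-H1437 (middle) and by quintile of transcript GC in NCI-H1437 (right). Solid lines are first and dashed lines second libraries. Human Aeg-S 2 goes from -0.25 to 0.30 with length and human Aeg-L 2 from -0.32 to 0.49 with GC, while Aeg-S 1 stays between 0.00 and 0.03 with length.

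The counts of calls depended on these libraries. With Aeg-S 1 left out, so that Aeg-S 2 stood alone and was assumed to vary like the other groups, Aeg-S against DPBS gave 1329 calls in mouse, 293 higher and 1036 lower, and 1544 in human cells, 605 higher and 939 lower. The human genes that were higher had a median exon length of 7970 bases, those that were lower 2483, and all tested genes 3896. With Aeg-S 2 left out instead, edgeR called 0 genes in either species. An unadjusted p under 0.05 was then found for 688 mouse genes (3.33%) and 307 human genes (1.70%).

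With both second libraries left out, a choice made after seeing the data, the remaining Aeg-S and Aeg-L libraries were set against DPBS. The human median half-width was then 0.40 (1.32-fold). Aeg-S gave 13 human calls (0.0727%), 6 higher and 7 lower. The 6 higher were CXCL1 at a log2 change of 1.79, NFKBIZ at 1.14, EGR1 at 0.76, DHRSX and TIAM1, which had no reads in DPBS, and 1 ID without a symbol. In the left-out Aeg-S 2, NFKBIZ was at 4.32 CPM and EGR1 at 6.36, beside 4.00 and 3.98, and 6.09 and 7.56, in DPBS. DHRSX was at 1.25 and 0.259 CPM under Aeg-S, 4.58 and 0 under Aeg-L, and 0 in both Aeg-S/L libraries. The ID without a symbol lies on chromosome Y and was at 2.53 and 0.317 CPM under Aeg-S. Whether reads of DHRSX and this ID were split between copies was not tested. SRXN1 at -1.13 was among those lower. Aeg-L gave 172 (0.961%), 13 higher and 159 lower, and the 159 had a median GC of 65.2%, beside 48.8% over all tested genes. In mouse the calls were 0 for Aeg-S and 1 for Aeg-L. Each rests on a single library per subunit.

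Without any call, the genes with the smallest p are described next. They were taken only among genes whose subunit and DPBS libraries did not overlap, so that gap was set by the choice. How many of all genes part in this way was not counted. Under Aeg-S the human genes that were higher in both libraries included PTGS2, the inducible cyclooxygenase, at 19.4 and 13.1 CPM in DPBS, 26.4 and 28.96 under Aeg-S, 22.2 and 16.6 under Aeg-L, and 703 and 738 under Aeg-S/L. Its log2 change for Aeg-S was 0.77 ± 0.21 (unadjusted p = 0.00338, adjusted p = 0.528). STC1, the calcium-regulated hormone stanniocalcin, was at 27.9 and 27.1 CPM in DPBS, 39.1 and 48.4 under Aeg-S, 37.2 and 28.95 under Aeg-L, and 129 and 126 under Aeg-S/L, a change of 0.67 ± 0.18 (adjusted p = 0.528). For PTGS2 and STC1 both Aeg-S libraries lay above all DPBS values, which the choice of genes required. SNHG25, a host gene of a small nucleolar RNA, was lower under Aeg-S, at 1.60 and 1.43 CPM in DPBS, 0.260 and 0.317 under Aeg-S and 0.598 and 1.23 under Aeg-L, a log2 change of -2.38 ± 0.50 (unadjusted p = 0.000432, adjusted p = 0.528).

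Under Aeg-L the human genes with the smallest p included several near 1 CPM. ZMPSTE24-DT, a divergent transcript, was at 1.46 and 1.66 CPM in DPBS, 2.50 and 1.497 under Aeg-S, and 3.98 and 3.68 under Aeg-L, a log2 change of 1.29 ± 0.32 (adjusted p = 1). TNFSF15, a cytokine of the tumour necrosis factor family, was at 1.49 and 1.56 CPM in DPBS, 2.42 and 3.20 under Aeg-S, 3.56 and 2.37 under Aeg-L, and 4.22 and 5.18 under Aeg-S/L. All its single-subunit values lay between those of DPBS and Aeg-S/L. PSG3, a pregnancy-specific glycoprotein with close paralogs whose reads could be split, was at 1.16 and 1.04 CPM in DPBS, 0.521 and 0.345 under Aeg-S, and 0.208 and 0.228 under Aeg-L (log2 change -2.32 ± 0.59, adjusted p = 1).

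Mouse gene IDs did not match a symbol in the reference used here, so 4 IDs are given as in the files (mm10). ENSMUSG00000032487.8 (chr1:150100031-150108227) was at 100.7 and 74.9 CPM in DPBS, 170 and 174 under Aeg-S, 118 and 105 under Aeg-L, and 346 and 359 under Aeg-S/L. Its log2 change for Aeg-S was 0.97 ± 0.16 (edgeR adjusted p = 0.698, DESeq2 adjusted p = 0.00336), and both Aeg-S libraries lay above all DPBS and Aeg-L values. ENSMUSG00000053175.17 (chr7:19808462-19822770) was at 16.2 and 12.6 CPM in DPBS, 23.8 and 25.8 under Aeg-S, 25.5 and 25.01 under Aeg-L, and 208 and 194 under Aeg-S/L. All 4 single-subunit values lay above DPBS, with a change of 0.81 ± 0.14 for Aeg-L (edgeR adjusted p = 1, DESeq2 adjusted p = 0.157).

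ENSMUSG00000035557.9 (chr11:100256217-100261029) had 80 counts over the DPBS libraries and 0 over those of Aeg-S, and stood at 1.05 and 2.86 CPM under Aeg-L (edgeR adjusted p = 0.698, DESeq2 adjusted p = 0.00357). ENSMUSG00000095562.8 (chrX:170009659-170019281) was at 8.92 and 11.3 CPM in DPBS, 4.65 and 3.91 under Aeg-S, 1.08 and 2.18 under Aeg-L, and 11.2 and 6.80 under Aeg-S/L. The order was DPBS, Aeg-S and Aeg-L without overlap, and the change for Aeg-L was -2.63 ± 0.38 (edgeR adjusted p = 1, DESeq2 adjusted p = 5.93e-07).

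The epithelial identity of the human line was visible in all 6 DPBS and single-subunit libraries. The 5 epithelial markers, EPCAM, CDH1, KRT8, KRT18 and KRT19, summed to between 2527 and 3353 CPM of total counts. Among 8 leukocyte markers CD68 was at 0 in all 6 and only S100A9 and S100A8 reached 1 CPM, which airway epithelial lines also express. The 8 summed to 70.9 to 416 CPM, lowest in Aeg-S 2. Fibroblast markers summed to 54.3 to 96.7 CPM, nearly all of it COL1A1, and endothelial markers to 3.26 to 5.19 CPM. The part of these levels in any comparison was not tested. Mouse markers were not analysed here.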

How the data were processed

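Per the labels' protocols, RNA came from the TIANGEN RNAprep kit and libraries from the NEBNext Ultra RNA kit, which does not mark strand. The submitters' processing notes name HISAT2 2.2.1, SAMtools, featureCounts 2.0.2, DESeq2 1.36.0 and R 4.2.2, with the builds mm10 and hg19. The strand setting of the counting step is not stated there, so overlapping and antisense genes cannot be told apart. The deposited values are raw counts per gene, and they were used as the authors deposited them. Of 57820 human gene IDs 51996 matched a symbol, and of 55401 mouse IDs 0 did. Of the count columns of both tables, those of all groups of the experiment entered the fit.

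Each experiment was fitted on its own in R 4.3.3 with edgeR 4.0.16: filterByExpr, TMM scaling, 1 coefficient per group over all its groups, and the quasi-likelihood F test, with Benjamini-Hochberg adjustment over all tested genes. Calls needed an adjusted p under 0.05. Standard errors were the size of the log2 change over the root of F, and 95% intervals used the test's degrees of freedom. Genes with 0 counts in both groups got no interval (at most 60 per comparison). The smallest callable change used the median standard error and the p that adjustment asks of 1, 100 or 1000 changed genes. DESeq2 1.42.0 was the alternative test, and other filters, scalings, samples in the fit and a replicate block were tried. The fitting step was tested on simulated data. Libraries of a group differed by more than sampling noise.

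The members, the gene lists and the tests were chosen with earlier results of these data known. Genes named are members of the 17 lists, up to 10 higher and 10 lower genes per subunit with the smallest p and no overlap between libraries at 1 CPM or more, those most above or below both subunits under Aeg-S/L, and genes called by DESeq2 where it called 10 or fewer. For mouse, at most 2 IDs higher and 2 lower are named. Genes marked as singled out later fall outside this rule. Promoters came from RefSeq. The values of some list members are not reported here.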

Additional observations from a re-analysis of the deposited data

How the results depend on the processing

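The counts of called genes for the single subunits depended on the low-count filter, the tool and the libraries. Without a filter, Aeg-S against DPBS, Aeg-L against DPBS and Aeg-S against Aeg-L gave 775, 132 and 540 calls in mouse and 278, 9 and 974 in human cells, and human Aeg-S/L against Aeg-L gave 1613. The cause was not tested. DESeq2 gave 18, 2 and 12 in mouse, 5 for human Aeg-S against Aeg-L and 1484 for human Aeg-S/L against Aeg-L. Fitted on their own libraries only, human Aeg-S against Aeg-L gave 6 and Aeg-S/L against Aeg-L 380.

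With 1 library left out at a time, calls ranged from 0 to 1329 in mouse and 0 to 1544 in human cells for Aeg-S against DPBS, from 0 to 1 and 0 to 1 for Aeg-L, and from 0 to 1273 and 0 to 2454 for Aeg-S against Aeg-L, highest where Aeg-S 2 stood alone. Human Aeg-S against Aeg-L also gave 1978 where Aeg-L 2 stood alone. For Aeg-S/L the ranges were 4499 to 8017 and 601 to 5997 against Aeg-S, and 4013 to 4532 and 246 to 3783 against Aeg-L. With both second single-subunit libraries left out, Aeg-L gave 1 call in mouse, and human Aeg-S, Aeg-L, Aeg-S against Aeg-L and Aeg-S/L against Aeg-L gave 13, 172, 5 and 7256. In that setting 5 gene values turned sign, counting only those called there or in the main fit. For Aeg-L the log2 changes were -0.65 for JUND, -0.49 for NR4A1, -0.64 for HSPB1 and -0.89 for SRXN1. For Aeg-S/L against Aeg-S it was -0.26 for PCNA. A lone library was assumed to vary like the others.

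The replicate number as a block gave 0 calls in all 6 comparisons among DPBS and single subunits, 6644 and 6320 for mouse Aeg-S/L against Aeg-S and Aeg-L, and 4475 and 699 in human cells. The labels tie the numbers to no shared batch, and deviations of same-numbered libraries correlated between -0.24 and 0.09 in mouse and between -0.10 and 0.10 in human cells, so they were not taken as pairs. Over 730 gene results, 8675 recomputed values stayed on the same side of the threshold, 249 gained a call and 206 lost it. Another 5 turned sign and were called in the main fit or in the other setting. Sign changes of values without a call in either were not counted apart. The median half-width of the interval ranged from 0.49 to 1.14 for mouse Aeg-S and from 0.40 to 1.03 for human Aeg-S. It was widest for genes below 1 CPM, at 1.87 for Aeg-S in each species, and the part of depth was not tested.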

Other observations

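TIAM1 and IGFBP7 lie outside the naming rule and were singled out after their values were seen. TIAM1 (hg19 chr21:32490734-32932290), which encodes an activator of the small GTPase RAC1, had counts of 0 and 0 in the human DPBS libraries, 40 and 28 under Aeg-S, 32 and 8 under Aeg-L, and 10 and 8 under Aeg-S/L. Set against a floor of 3 counts over the DPBS group, this was at least 23.0-fold higher for Aeg-S and at least 13.2-fold for Aeg-L. The unadjusted p were 9.28e-05 and 0.000299, and the edgeR adjusted p 0.528 and 1. All 6 treated libraries held reads of it and the DPBS libraries did not, at levels of at most 1.04 CPM.

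TIMM23B (hg19 chr10:51371390-51387768), a gene of the mitochondrial inner membrane translocase with the near-identical copy TIMM23, was at 0.910 and 1.12 CPM in DPBS, 0.703 and 0.374 under Aeg-S, and 25.3 and 1.34 under Aeg-L. A single Aeg-L library was high. Reads could be split between the copies, so its value is uncertain. IGFBP7, a secreted binding protein of insulin-like growth factors, had 33 and 29 counts in DPBS, 5 and 0 under Aeg-S, and 17 and 26 under Aeg-L, with a log2 change of -3.56 for Aeg-S (unadjusted p = 0.000829, adjusted p = 0.528).

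TMCC3, BMF and KIT were lower under Aeg-S/L than under each subunit. TMCC3, an endoplasmic reticulum protein, was at 11.2 and 12.2 CPM in DPBS, 12.1 and 16.9 under Aeg-S, 13.5 and 12.1 under Aeg-L, and 1.81 and 1.77 under Aeg-S/L. BMF, a pro-apoptotic member of the BCL-2 family, was at 8.79 and 7.17 CPM in DPBS, 6.41 and 6.28 under Aeg-S, 9.67 and 9.52 under Aeg-L, and 1.29 and 0.629 under Aeg-S/L. Both Aeg-S values of BMF lay below and both Aeg-L values above the DPBS values. The log2 change of BMF was -2.73 for Aeg-S/L against Aeg-S and -3.32 against Aeg-L (adjusted p = 0.000226 and 4.54e-05), beside -0.33 and 0.27 for the subunits against DPBS. KIT, a receptor tyrosine kinase, was at 1.32 and 1.77 CPM in DPBS, between 1.51 and 2.29 in the 4 single-subunit libraries, and at 0.306 and 0.329 under Aeg-S/L.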
